A study of Rattus norvegicus with 10 samples.

Results

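The subunits of protein phosphatase 2A (PP2A) were followed in rat liver through 10 genes, Ppp2r2b, Ppp2r2a, Ppp2r2c, Ppp2r2d, Ppp2r5a, Ppp2r5c, Ppp2r1a, Ppp2r1b, Ppp2ca and Ppp2cb, 10 of the 14217 genes tested, measured by 17 of 31042 probe sets. Members were every probe set whose array annotation gives exactly 1 of these symbols. Ppp2r2b was chosen by its measured log2 difference between HMB and control rats, and the other 9 genes joined it as subunits of the same enzyme, with results of these data known. Its difference is therefore a description without a test. Of the genes, 4 had 1 probe set each, and 1 further probe set annotated to Ppp2ca together with a second gene was not a member.

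The HMB group held 5 Harlan Sprague Dawley rats given feed with 10000 ppm HMB (2-hydroxy-4-methoxybenzophenone, or oxybenzone, an ultraviolet filter of sunscreens) for 13 weeks, and the control group held 5 rats of that strain given 0 ppm. Both groups ate the NTP-2000 diet, and liver RNA of each rat went on 1 Affymetrix rat genome array. HMB replicate 1 carried a dose label of 0 ppm against its title and chemical label, and was kept with the HMB rats. Sex and age were not given, and the rats lived 5 to a cage, so that the effects of a shared cage and of HMB cannot be told apart if each group filled 1 cage. No label states that the rats of a group came from separate litters, so the spread between them is that between these animals only.

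PP2A is one of the main serine and threonine phosphatases of animal cells. A catalytic subunit (Ppp2ca or Ppp2cb) sits on a scaffold subunit (Ppp2r1a or Ppp2r1b), and a further, regulatory subunit decides where the enzyme goes and which proteins it dephosphorylates. The B55 family (Ppp2r2 genes) and the B56 family (Ppp2r5 genes) are among these regulatory subunits. In liver PP2A acts on proteins of insulin signalling, on metabolic enzymes and on cell cycle proteins. In rats and humans Ppp2r2b is best known from brain, where alternative first exons give products with different amino ends.

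Transcripts of Ppp2r2b, a B55 regulatory subunit, were lower in all 5 HMB rats than in any control. Its only probe set (1387803_at) had log2 signals of 5.762, 4.814, 5.100, 5.586 and 4.689 in HMB rats 1 to 5, against 6.518, 5.972, 6.636, 7.269 and 5.957 in control rats 1 to 5. The highest HMB value, in HMB 1, lay below the lowest control value, in control 5, and control 4 was the highest of all. The means were 5.19 ± 0.47 in HMB rats and 6.47 ± 0.54 in controls (SD, n = 5 each), so that HMB minus control was -1.28 ± 0.26 in log2 units (SE of the limma fit, as for all differences given here), which put the HMB signal at 41.2% of control. It was the 8th largest fall of all probe sets. Rats of 1 group also differed widely, and the within-group SD of 0.508 exceeded that of 98.0% of the probe sets of like level, when all probe sets were put into 4 equal classes by mean signal. In whole liver RNA, fewer cells that hold a transcript and less transcript per cell cannot be told apart.

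**Figure D1:**
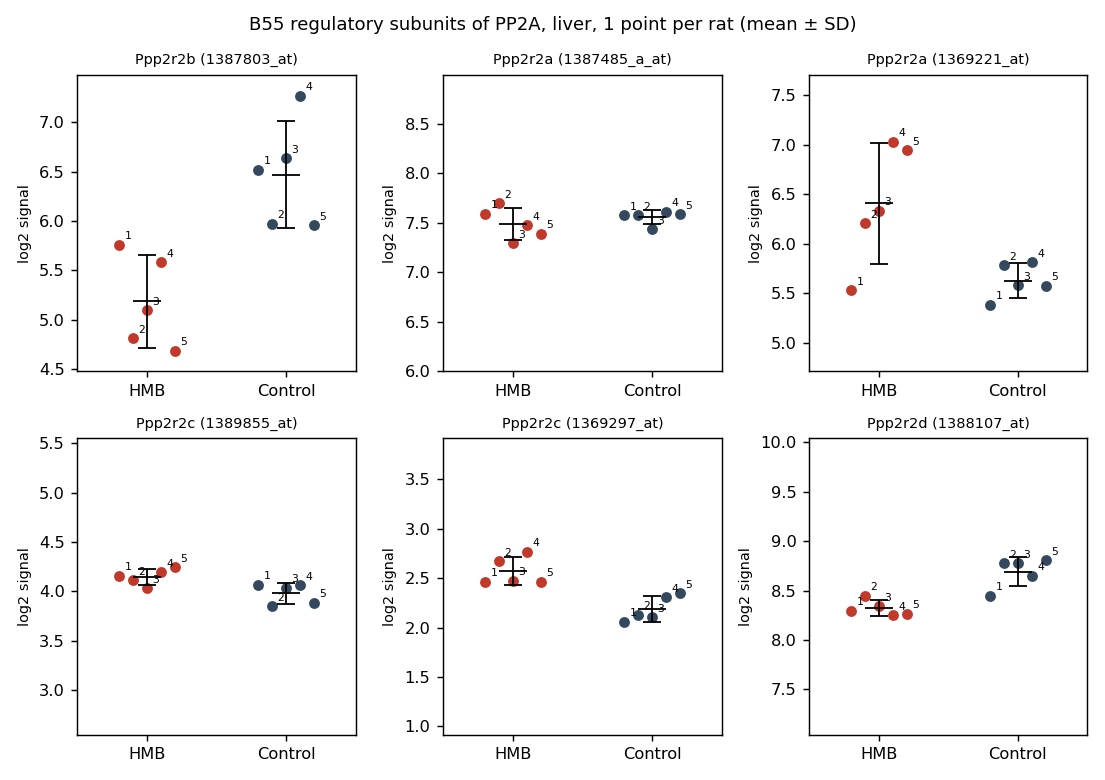
Log2 signal (vertical axis) of the 6 probe sets of the B55 genes, HMB rats on the left and control rats on the right of each panel, with 1 numbered point per rat and bars for the mean ± SD (n = 5). All panels span the same range of log2 units. The HMB points of Ppp2r2b lie between 4.689 and 5.762, below all controls, while those of the dimmer Ppp2r2a probe set (1369221_at) spread from 5.529 to 7.032.

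The gene lies on chromosome 18, and RefSeq (build GRCr8) gives 3 start windows for it in the table used here, all on the minus strand. The 250 bases before each start are shown because the single probe set gives 1 value for the gene and does not separate its starts. Capitals mark GCGTG or its complement on the other strand, the core letters bound by the aryl hydrocarbon receptor (AhR), a sensor of aromatic compounds. The stretches lie at chr18:35331616-35331865, chr18:35203015-35203264 and chr18:35165017-35165266, printed in that order, 5′ to 3′.
Ppp2r2b start 1: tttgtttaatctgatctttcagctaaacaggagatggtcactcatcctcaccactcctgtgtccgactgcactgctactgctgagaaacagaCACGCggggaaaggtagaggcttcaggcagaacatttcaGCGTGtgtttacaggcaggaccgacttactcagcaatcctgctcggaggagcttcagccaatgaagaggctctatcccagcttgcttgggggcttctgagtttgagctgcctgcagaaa
Ppp2r2b start 2: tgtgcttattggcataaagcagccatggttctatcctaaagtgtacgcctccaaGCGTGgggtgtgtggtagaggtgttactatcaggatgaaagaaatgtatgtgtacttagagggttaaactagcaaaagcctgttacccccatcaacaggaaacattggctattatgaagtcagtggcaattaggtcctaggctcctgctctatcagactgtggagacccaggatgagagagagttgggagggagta
Ppp2r2b start 3: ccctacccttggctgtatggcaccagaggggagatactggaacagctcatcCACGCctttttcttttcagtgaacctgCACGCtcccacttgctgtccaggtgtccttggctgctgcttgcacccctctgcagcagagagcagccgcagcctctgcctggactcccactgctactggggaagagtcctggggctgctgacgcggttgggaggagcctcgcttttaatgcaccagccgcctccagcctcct
GCGTG was present on either strand at 2, 1 and 2 places in these stretches. Of the 33469 start windows in the table, 25.9% hold it at least once. Among the other members Ppp2r1b, with a log2 difference of -0.08 ± 0.11, held GCGTG at 5 places, Ppp2ca at 3 and Ppp2r2c at 1. The stretches of Ppp2r1a, Ppp2r2d, Ppp2r5a and Ppp2r5c held none. A tie between this motif and the differences was not tested. No match to TGACGTCA, the palindrome bound by cAMP response proteins, to the E-box CACGTG or to TATAAA was found in the 3 stretches. A match is a run of letters, not a binding site, and these motifs were chosen with the values known.

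Ppp2r2d, another B55 subunit that acts at mitosis in vertebrates, had log2 signals of 8.295, 8.450, 8.345, 8.250 and 8.265 in HMB rats 1 to 5, against 8.448, 8.776, 8.775, 8.652 and 8.809 in control rats 1 to 5. Of the HMB rats 4 lay below every control, and HMB 2 was level with control 1, the lowest control. The log2 difference was -0.37 ± 0.09, with an adjusted p of 0.0514 by limma over all probe sets, just outside the threshold of 0.05. The brightest level class, which holds its probe set, had a median difference of -0.10. Under 21 other settings Ppp2r2d had an adjusted p by limma from 0.0215 to 0.424, under 0.05 in 7 of them. The 250 bases before its start (chr1:203095332-203095581, plus strand) and those before the start of the catalytic gene Ppp2ca (chr10:36858787-36859036, plus strand) are shown because TGACGTCA occurs in both of them and in no other of the 10 stretches found for 8 member genes. It occurs in 1.59% of all 33469 windows. Their median share of G and C is 51.2%, against 62.4% in the Ppp2r2d stretch and 70.4% in that of Ppp2ca. A tie between TGACGTCA and the differences was not tested. Capitals mark TGACGTCA and GCGTG on either strand, which overlap at 1 place in Ppp2ca.
Ppp2r2d start: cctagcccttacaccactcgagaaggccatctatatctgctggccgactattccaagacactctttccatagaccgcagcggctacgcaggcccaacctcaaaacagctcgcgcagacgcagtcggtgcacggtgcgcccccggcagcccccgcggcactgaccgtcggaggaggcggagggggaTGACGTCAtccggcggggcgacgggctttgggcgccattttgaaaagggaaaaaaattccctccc
Ppp2ca start: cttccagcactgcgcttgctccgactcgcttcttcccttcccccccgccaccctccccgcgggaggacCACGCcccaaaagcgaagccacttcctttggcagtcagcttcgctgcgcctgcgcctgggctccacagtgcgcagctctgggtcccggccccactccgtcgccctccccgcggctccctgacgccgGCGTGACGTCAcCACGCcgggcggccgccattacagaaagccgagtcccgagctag
Ppp2r2d held no GCGTG, and Ppp2ca held it at 3 places.

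The probe sets of Ppp2r2a, the B55 subunit also known as the alpha form, disagreed. The brighter one (1387485_a_at) averaged 7.49 ± 0.16 in HMB rats and 7.56 ± 0.07 in controls (SD, n = 5 each), and the groups overlapped. The dimmer one (1369221_at) had 5.529, 6.210, 6.335, 7.032 and 6.949 in HMB rats 1 to 5, against 5.384, 5.781, 5.580, 5.813 and 5.573 in control rats 1 to 5. HMB 1 lay among the controls, the other 4 HMB rats lay above them, and HMB 3, 4 and 5 were the 3 highest. Its log2 difference was 0.78 ± 0.23 (SE, adjusted p = 0.0861 by limma). The brighter probe set differed by -0.07 ± 0.09, so no single direction can be given for the gene.

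Ppp2r2c, a B55 subunit best known from brain, was dim in both groups. Its probe set 1369297_at had 2.465, 2.671, 2.476, 2.769 and 2.465 in HMB rats 1 to 5, against 2.060, 2.129, 2.105, 2.306 and 2.349 in control rats 1 to 5. All 5 HMB rats lay above all controls, with a log2 difference of 0.38 ± 0.09 (adjusted p = 0.0566 by limma). Probe sets of the same level class, the dimmest, had a median difference of 0.09. The second probe set of Ppp2r2c (1389855_at) differed by 0.17 ± 0.08 with overlapping groups, beside a median of 0.11 in its own class.

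The B56 subunits include regulators of chromosome attachment and of Wnt and insulin signalling, and none of their 5 probe sets passed. Ppp2r5c had 3 probe sets with log2 differences of -0.10 ± 0.07, -0.18 ± 0.10 and -0.33 ± 0.11, from the brightest to the dimmest. Medians of their level classes were -0.10, -0.10 and -0.08 in that order. The dimmest (1373384_at) had 6.359, 6.114, 5.834, 6.211 and 5.820 in HMB rats 1 to 5, against 6.379, 6.532, 6.301, 6.264 and 6.492 in control rats 1 to 5. Of the HMB rats 4 lay below every control, HMB 3 and HMB 5 were the lowest, and the adjusted p was 0.118 by limma. Ppp2r5a differed by -0.07 ± 0.07 in its bright probe set (1399005_at) and by -0.01 ± 0.07 in its dim one (1392241_at), with overlapping groups in both.

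Among the scaffold subunits, on which every PP2A complex is built, Ppp2r1a was measured at 6.68 ± 0.15 in HMB rats and 6.65 ± 0.11 in controls (SD, n = 5 each) by its brighter probe set (1375245_at). Its dimmer one (1381024_at) had 3.809, 3.493, 3.777, 3.779 and 3.882 in HMB rats 1 to 5, against 3.378, 3.285, 3.529, 3.530 and 3.451 in control rats 1 to 5. Of the HMB rats 4 lay above every control and HMB 2 lay among them, with a log2 difference of 0.31 ± 0.09 (adjusted p = 0.0797 by limma). Ppp2r1b averaged 6.52 ± 0.17 in HMB rats and 6.61 ± 0.18 in controls, a difference smaller than either SD.

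Of the catalytic subunits, which carry the phosphatase activity, Ppp2cb had 9.106, 9.054, 9.070, 9.154 and 9.135 in HMB rats 1 to 5, against 9.202, 9.287, 9.211, 9.157 and 9.282 in control rats 1 to 5. All HMB rats lay below all controls, with HMB 4 just under control 4, and the log2 difference was -0.12 ± 0.07 (adjusted p = 0.278 by limma). The brightest level class, which holds this probe set and the brighter one of Ppp2ca, had a median difference of -0.10. After cyclic loess Ppp2cb differed by -0.04, and after quantile normalization by -0.06. Ppp2ca, the major catalytic form in most tissues, differed by -0.26 ± 0.09 in its brighter probe set (1388805_at), with 4 HMB rats below every control and HMB 2 among them (adjusted p = 0.108). Its dim probe set (1380061_at) differed by 0.12 ± 0.15, and 3 HMB rats lay above and 2 below the whole control range.

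**Figure D2:**
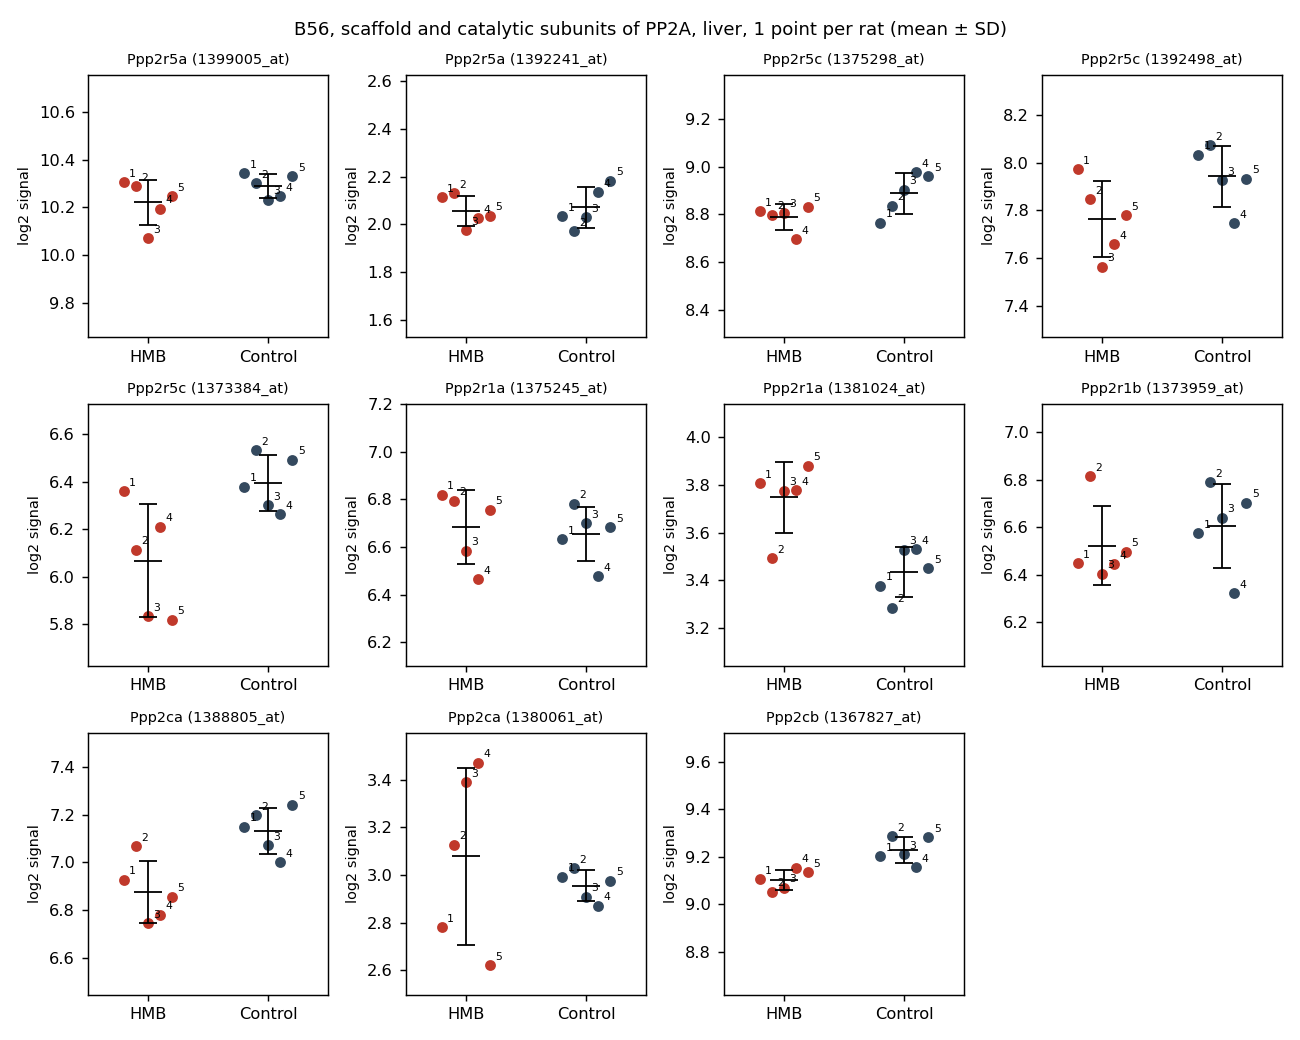
Log2 signal (vertical axis) of the 11 probe sets of B56, scaffold and catalytic subunits, HMB rats on the left and control rats on the right of each panel, with 1 numbered point per rat and bars for the mean ± SD (n = 5). All panels span the same range of log2 units. Ppp2cb at 9.054 to 9.154 in HMB rats shows groups that do not overlap but lie close together.

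Over all 17 member probe sets, 1 had an adjusted p under 0.05 (limma, Benjamini-Hochberg over 31042 probe sets), that of Ppp2r2b, and it was lower. Over all probe sets 1.7% passed, 0.705% higher and 0.995% lower in HMB rats. Since Ppp2r2b was chosen on this contrast, nothing is read from its call. The other 16 did not pass, with adjusted p from 0.0514 to 0.92. An unadjusted p under 0.05 by limma was seen in 7 of the 17, Ppp2r2b among them, with 4 lower and 3 higher. Over all probe sets 24.1% had such a p. Groups that did not overlap were seen in 2 probe sets with all HMB rats below, Ppp2r2b and Ppp2cb, and in 1 with all HMB rats above, Ppp2r2c. Over all probe sets 2.93% had all HMB rats below and 2.84% all above. The median log2 difference of the members was -0.07, with 11 of 17 below 0, and that of all probe sets was 0.01, with 47.6% below 0. After cyclic loess 9 of 17 members lay below 0 with a median of -0.004, after quantile normalization 9 with -0.009. With arrays set to equal medians 12 lay below 0, and with the poly-A measure described below in the fit 7 did. No direction is therefore given for the members together.

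**Figure D3:**
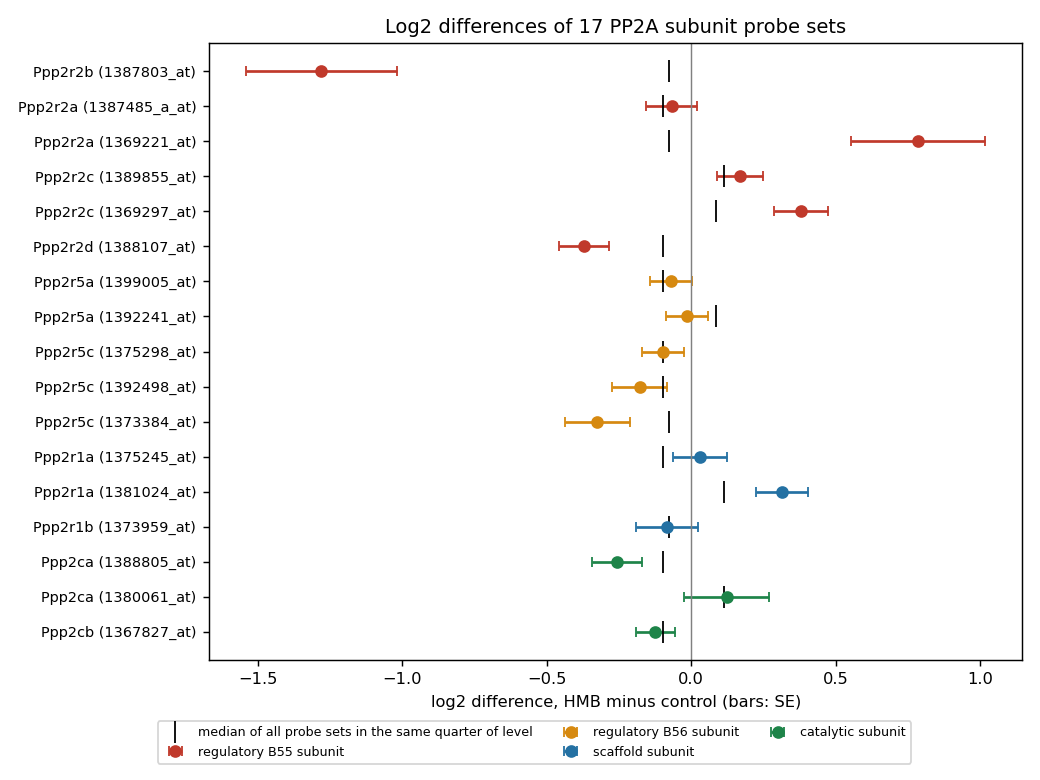
Log2 difference, HMB minus control (horizontal axis), of the 17 PP2A subunit probe sets, coloured by role, with bars for the SE. Black ticks mark the median difference of all probe sets in the same of 4 equal classes of mean level. Ppp2r2b at -1.28 and the dimmer Ppp2r2a probe set at 0.78 lie farthest from 0.

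Differences between the groups varied with brightness, and array measures set HMB 3 to 5 apart from HMB 1 and 2. Probe sets in the 2 dimmer level classes had median log2 differences of 0.09 and 0.11, and those in the 2 brighter ones -0.08 and -0.10. Of the member probe sets, 2 and 3 lay in the dimmer classes and 4 and 8 in the brighter ones. The signal of 24 poly-A control probe sets, for transcripts added to the RNA, minus that of 18 hybridisation controls was -1.54, -1.78 and -1.47 in HMB 3, 4 and 5, and -1.92 and -1.96 in HMB 1 and 2, against -2.19 to -1.90 in controls. The 3′ minus 5′ signal of GAPDH, a measure of RNA length, was 1.97, 2.09 and 1.90 in HMB 3, 4 and 5, and 1.31 and 1.38 in HMB 1 and 2, against 1.38 to 1.77 in controls. The same measure of beta-actin was 3.616, 3.963 and 3.576 in HMB 3, 4 and 5, against 3.255 to 3.641 in controls. By beta-actin HMB 3 and 5 thus lay within the control range, and HMB 1 and 2, at 3.158 and 3.182, lay below it. With HMB 3 to 5 left out the log2 difference of Ppp2r2b was -1.18, and that of Ppp2r2d was -0.32. The dimmer Ppp2r2a probe set then differed by 0.24, and with HMB 1 and 2 left out by 1.15 (adjusted p by limma = 0.0169). When that poly-A measure was added to the fit, Ppp2r2b differed by -1.12 and this Ppp2r2a probe set by 0.35. By limma 0 of the 17 member probe sets passed without HMB 3 to 5, and 0 passed once the poly-A measure was in the fit, while 3 had an unadjusted p under 0.05 in each, where 10.6% and 12.3% of all probe sets did. With HMB 1 and 2 left out 6 passed, in a fit that called 6.75% of all probe sets. The part of RNA quality in these differences was not tested.

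**Figure D4:**
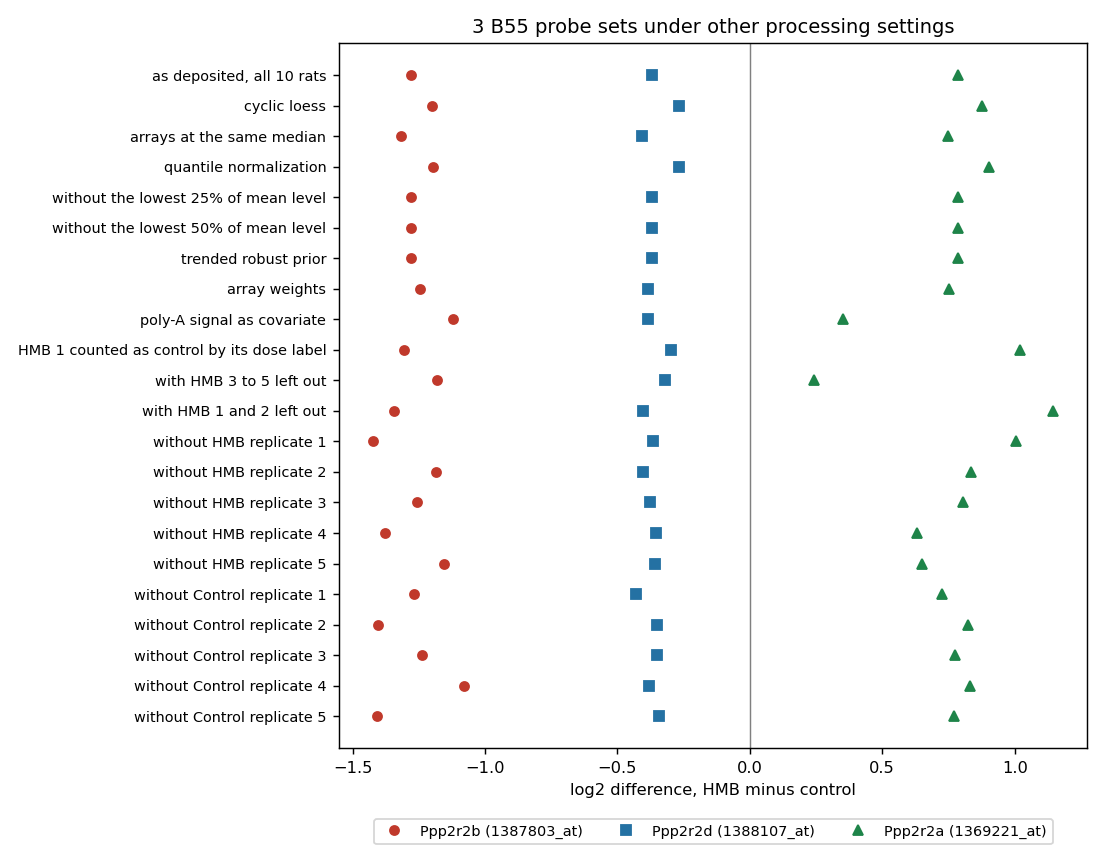
Log2 difference, HMB minus control (horizontal axis), of 3 B55 probe sets as deposited and under 21 other settings (rows). Ppp2r2b stays between -1.42 and -1.08 and Ppp2r2d between -0.43 and -0.27, while the dimmer Ppp2r2a probe set ranges from 0.24 to 1.15.

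Genes around PP2A outside the members were counted in 5 lists chosen by function, with 1 probe set per gene. Of 78 measured genes, 1 fell, none rose and 77 did not pass (limma, adjusted over 14217 genes), where 1.72% of all genes passed, 0.76% higher and 0.957% lower. The gene that fell was Bod1l1, a relative of the PP2A-B56 inhibitor Bod1 that protects replication forks. It had 4.431, 4.619, 4.125, 4.379 and 3.970 in HMB rats 1 to 5, against 5.228, 5.407, 4.922, 5.055 and 4.976 in control rats 1 to 5. All HMB rats lay below all controls, with a log2 difference of -0.81 ± 0.13 (adjusted p = 0.0294 by limma). This call was kept in 11 of the 21 other settings that tested the gene, with adjusted p from 0.0196 to 0.281. It was lost without HMB 2, 4 or 5, without control 2, 3, 4 or 5, without HMB 3 to 5, with HMB 1 as a control and with the poly-A measure in the fit.

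Over the 5 lists 28 of 78 genes had an unadjusted p under 0.05, as did 24.9% of all genes. Other regulatory subunits of PP2A had 0 of 9 measured genes called, and the lowest adjusted p by limma was 0.0632. Strn3, a striatin of the STRIPAK complex (a PP2A assembly that holds kinases), differed by -0.30 ± 0.08, Strn by -0.22 ± 0.07, and the B56 gene Ppp2r5e by -0.27 ± 0.10. All 9 lay below 0, with a median of -0.12. After quantile normalization 4 of 9 lay below 0, after cyclic loess 5 of 9, so no direction is given for this list. The probe set of largest SD for Strn gave 0.17, against the sign of its brightest one.

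Besides Bod1l1, 15 measured genes of PP2A assembly and control did not pass. Lcmt1, the methyltransferase that modifies the catalytic subunit's tail and so favours B55 binding, had 8.808, 8.610, 8.574, 8.870 and 8.791 in HMB rats 1 to 5, against 9.023, 8.987, 9.191, 8.959 and 9.314 in control rats 1 to 5. The groups did not overlap, and the log2 difference was -0.36 ± 0.09 (adjusted p = 0.0632 by limma). Such separation, with all HMB rats below, was not particular to Lcmt1. Among the 78 listed genes Bod1l1, Strn3, Strn, Ppp5c, Ppp4r1, Ppp6r3, Ppp1ca, Bad and Rb1 had it too. The share over all probe sets was 2.93%, but it was not counted for genes of like level. Of the 78, 62 lay in the 2 brighter level classes of genes, where 74.1% of genes lay below 0. Nothing about the lists is therefore read from this separation. Bod1 differed by -0.43 ± 0.12 and Ensa, which blocks PP2A-B55 at mitosis once phosphorylated, by -0.30 ± 0.09. The median of the 16 measured genes was -0.05.

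STRIPAK partners had 0 of 10 called, with all 10 below 0 and a median log2 difference of -0.25. After cyclic loess or quantile normalization 8 of 10 lay below 0, with medians of -0.14 and -0.13, beside 48.5% and 46.0% of all genes below 0. Stk24, a kinase held by the complex, differed by -0.38 ± 0.15, Mob4 by -0.32 ± 0.09 and Fgfr1op2 by -0.25 ± 0.08 (adjusted p by limma from 0.0857 to 0.141). Related phosphatases had 0 of 16 called and a median of -0.14. Ppp5c, a phosphatase that works with Hsp90, differed by -0.34 ± 0.08 (adjusted p by limma = 0.0555), Ppp4r1 by -0.34 ± 0.09 and Ppp4r3a, a PP4 subunit, by -0.23 ± 0.08. The probe set of largest SD for Ppp4r3a gave 0.28.

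Transcripts of proteins described as PP2A substrates had 0 of 27 called and a median log2 difference of -0.10. Bad, a promoter of cell death, differed by -0.32 ± 0.08 (adjusted p = 0.0592 by limma), Rb1, which restrains entry into S phase, by -0.42 ± 0.11 and Gsk3b, a kinase of glycogen metabolism, by -0.34 ± 0.09. In all, 59 of the 78 listed genes lay below 0 with a median of -0.12, beside 53.5% below 0 and a median of -0.02 over all genes. Of the 78, 62 lay in the 2 brighter of 4 equal classes of genes by mean level, where 74.1% of genes lay below 0 with a median of -0.09. After cyclic loess 50 of the 78 lay below 0, with a median of -0.04, beside 48.5% and a median of 0.006 over all genes.

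**Figure D5:**
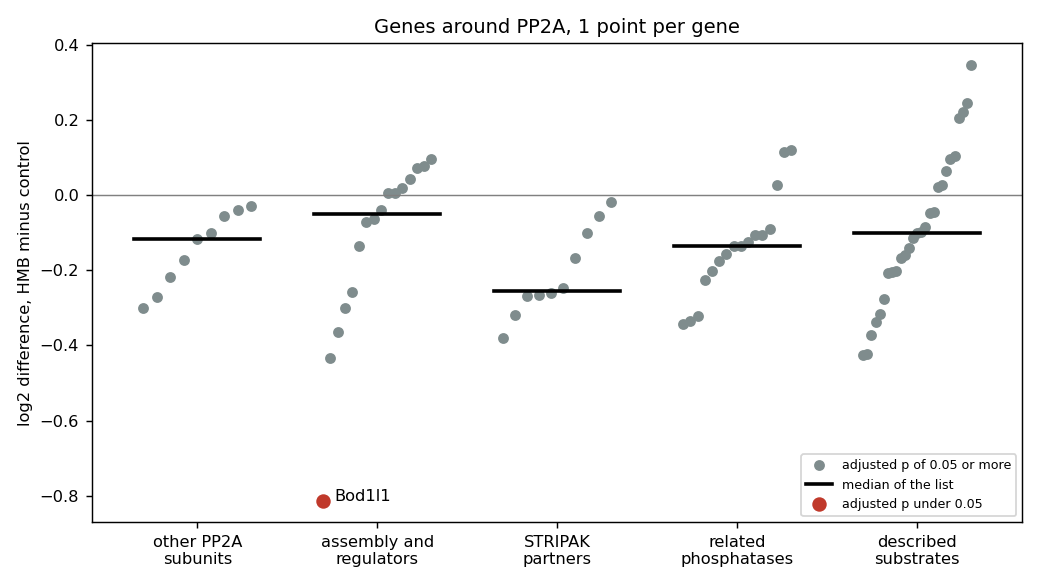
Log2 difference, HMB minus control (vertical axis), of 78 genes in 5 lists around PP2A, 1 point per gene, with black bars for the median of each list. Bod1l1 at -0.81 is the one gene with an adjusted p under 0.05, and the list medians lie between -0.25 and -0.05.

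Of the 3 nearest measured genes on each side of Ppp2r2b, each by its brightest probe set, 0 passed by limma. Of the 6, 2 (Prelid2 and Dpysl3) had an unadjusted p under 0.05, beside 24.9% of all genes. On the side of lower coordinates Rbm27, Lars1, a leucyl-tRNA synthetase, and Prelid2 differed by -0.20 ± 0.12, -0.14 ± 0.09 and -0.44 ± 0.19 in log2 units (adjusted p from 0.176 to 0.333 by limma). On the other side Dpysl3, a protein of the neuronal cytoskeleton, Jakmip2 and Spink1l differed by 0.25 ± 0.08, 0.02 ± 0.14 and 0.09 ± 0.07 (adjusted p from 0.11 to 0.952). The sign for Jakmip2 turned in 12 of 20 settings, and that for Dpysl3 with its probe set of largest SD (-0.026). Rbm27 by its probe set of largest SD was lower in HMB rats by -0.55 and passed (adjusted p by limma = 0.0395).

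Markers of other cells were counted because Ppp2r2b is best known from nervous tissue. Of 11 measured neuron and glia markers 0 were called by limma, and 10 lay above 0. Of the 11, 8 lay in the dimmest of the 4 level classes of genes, where 78.8% of all genes lay above 0. Their mean log2 signal per rat ran from 3.21 to 3.46 in HMB rats and from 3.13 to 3.39 in controls. Of the 6 hepatocyte markers 0 were called, with means per rat of 12.58 to 12.76 in HMB rats and 12.70 to 12.83 in controls. No marker was called in any of the other 9 lists of stellate, endothelial, Kupffer, bile duct, lymphoid, erythroid, smooth muscle, fat and pancreas cells. All measured lymphocyte (5), erythroid (4) and exocrine pancreas (4) markers also lay above 0. In these lists 4, 2 and 4 markers lay in the dimmest level class of genes. An unadjusted p under 0.05 by limma was seen in 3, 3 and 0 of them. Group ranges of list means overlapped in all 11 lists, and 15 of the 58 measured markers had an unadjusted p under 0.05, beside 24.9% of all genes.

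The genes most like Ppp2r2b were sought by the correlation with its probe set over the 10 rats after each group mean was taken off. Among 14216 genes compared, the 5 with the highest Pearson r that have a name beyond a locus number were Nap1l2 (r = 0.94), Cst12 (r = 0.92), Cnmd (r = 0.92), Cyp2c13 (r = 0.92), a male-predominant liver monooxygenase of rats, and Chrne (r = 0.91). Their Spearman rho lay between 0.85 and 0.94, and r without HMB 1 and control 4, the rats farthest from the median, between 0.82 and 0.88. The lowest r of any gene was -0.92, nearly as far from 0 as the highest. These values describe the highest of many correlations over 10 rats and carry no p. The log2 differences of these 5 genes between HMB and control rats ran from -0.07 to 0.29, and none passed (adjusted p by limma from 0.154 to 0.817).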

How the data were processed

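Liver RNA of 10 rats was measured on Affymetrix rat genome arrays, 1 per rat. The deposited table holds log2 signals made by the authors with RMA per the submitters' processing notes, with its version not given in the sources used here. It holds 31099 rows, of which the 57 of control transcripts entered no test. No raw intensities or detection calls were used. Depth has no meaning for arrays, and their number, 5 per group, limits the precision.

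Groups came from titles, and replicate numbers follow deposition order. No array pair of 45 was identical. Of the 31042 probe sets, 20826 name 1 gene, 436 several and 9780 none. Symbols were updated through gene identifiers for 20758 to RefSeq (GRCr8), whose table also gave the sequences and the order of neighbouring genes. Each of 14217 genes was represented by its brightest probe set for lists, neighbours and likeness. Members were tested by probe set.

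HMB minus control was fitted with limma 3.58.1 in R 4.3.3 (lmFit, eBayes, p-values from the moderated statistic, 8 residual degrees of freedom, prior 4.93 for probe sets), with Benjamini-Hochberg adjustment over all features and a threshold of 0.05. The fit was tested on simulated data. Level classes divide features into 4 equal groups by mean log2 signal over all rats. Named genes were all members, called list genes with the 3 next smallest p per list, neighbours, called markers and 5 genes of like pattern. Members, lists and settings were chosen with earlier results of these data known. Figures used matplotlib 3.10.9 in Python 3.11.15.

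Other settings were cyclic loess, quantile or equal-median scaling, array weights, a robust trended prior, filters that drop the dimmest 25% or 50% of features, a poly-A covariate, HMB 1 as a control, HMB 3 to 5 or HMB 1 and 2 left out, each rat left out, and the probe set of largest SD per gene.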

Additional observations from a re-analysis of the deposited data

Results flagged for a closer look

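Within groups, 4 of the 34 sets of 5 values held 1 rat whose distance to its nearest neighbour, as a share of the range, passed the Dixon limit of 0.71, and chance flags about 1 set in 20. For the brighter Ppp2r2a probe set (1387485_a_at) control 3, at 7.44, lay below the other controls at 7.58 to 7.61 (ratio 0.8001). For the brightest Ppp2r5c probe set (1375298_at) HMB 4, at 8.70, lay below the other HMB rats at 8.80 to 8.83 (ratio 0.752). For the dimmer Ppp2r1a probe set (1381024_at) HMB 2, at 3.49, lay below 3.78 to 3.88 (ratio 0.729), and for Ppp2r1b HMB 2, at 6.813, lay above 6.405 to 6.496 (ratio 0.776). No set of Ppp2r2b values was among them.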

How the results depend on the processing

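Ppp2r2b was lower in HMB rats in all 21 other settings, between -1.42 and -1.08 in log2 units, and its adjusted p was under 0.05 in 9 of them (0.0284 to 0.354 over all). Leaving out 1 rat gave Ppp2r2b -1.42 to -1.08, 0 to 1653 probe sets called of all, 0 to 3 member probe sets, 0 to 1014 genes, 0 to 10 listed genes and 0 neighbours, against 528, 1, 244, 1 and 0 with all rats. Without 1 rat, Ppp2r2b was called only when HMB 1 or control 1 was the rat left out. Since Ppp2r2b was chosen on this contrast and the settings refit the same rats, its calls in them are no test of it.

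Calls by limma under the other settings were as follows. Cyclic loess gave 125 probe sets, 0 members and 82 genes, and quantile scaling 106, 0 and 62, with 5 members at an unadjusted p under 0.05 in each. Over all probe sets 17.4% had such a p after cyclic loess and 17.2% after quantile scaling. Equal medians gave 674 probe sets, 2 members (Ppp2r2b and Ppp2r2d), 320 genes and 6 listed genes. Dropping the dimmest 25% gave 617 of 23281 probe sets, 2 members, 258 genes and 2 listed genes, and dropping 50% gave 546 of 15521 probe sets, 2 members, 156 genes and 3 listed genes. A robust trended prior gave 626 probe sets, 3 members, 253 genes and 2 listed genes, and array weights 925 probe sets, 3 members, 659 genes and 8 listed genes. The poly-A covariate gave 0 probe sets, 0 members, 0 genes and 0 listed genes (3806, 3, 1914 and 17 unadjusted), and leaving out HMB 3 to 5 also 0, 0, 0 and 0 (3276, 3, 1612 and 13 unadjusted), with fewer samples. HMB 1 as a control gave 532 probe sets, 2 members, 30 genes and 0 listed genes (25 unadjusted, beside 25.1% of all genes). Leaving out HMB 1 and 2 gave 2094 probe sets, 6 members, 704 genes and 4 listed genes. The largest-SD probe set per gene gave 1 neighbour, Rbm27, lower in HMB rats at -0.55. The causes were not tested.

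Among members, signs turned only for probe sets not called with all rats. These were both Ppp2r5a probe sets (1399005_at in 2 of 21 settings, 1392241_at in 5 of 19), the brighter ones of Ppp2r2a (4 of 21, up to 0.12) and Ppp2r1a (5 of 21), Ppp2r1b (4 of 21) and the dim one of Ppp2ca (1 of 20). Among the other named genes they turned for Jakmip2 (-0.072 with cyclic loess, -0.021 with equal medians, -0.068 with quantile scaling, -0.062 with array weights, -0.23 with the covariate, -0.18 without HMB 3 to 5, and -0.057 to 0.10 leaving out 1 rat), for Spink1l (-0.023 with the covariate and -0.025 without HMB 3 to 5), and with the largest-SD probe set for Strn (0.17), Ppp4r3a (0.28) and Dpysl3 (-0.026). No paired analysis was possible because replicate numbers follow deposition order and pair no animals. The number of arrays limits the precision.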
